A study of Mus musculus with 8 samples.

Results

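The genes described here are 32 members of fibroblast growth factor (FGF) signalling: 22 Fgf genes, 5 receptor genes and 5 feedback genes. They were taken by name, as every probe on both array designs whose gene name equalled one of these 32. This gave 53 of 39429 probes, and 32 of 30140 gene names. Measured values played no part in that choice.

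Expression was measured in GFP+ cells sorted from the kidney rudiments of NMRI mouse embryos at stage E11.5, on 1-colour arrays. The control group had the genotype Tbx18(GFP/+), so its cells already carried 1 altered Tbx18 allele, and comprised 3 arrays. The Tbx18_null group had the genotype Tbx18(GFP/GFP), with 3 arrays. The Tbx18VP16 group carried Tbx18(cre/+) together with Hprt(Tbx18VP16), with 2 arrays. The series' design text gives this Hprt allele as a CAG promoter with Tbx18VP16-GFP, so GFP in this group came from the Hprt locus, and in the other groups from the Tbx18 locus. The gate can therefore hold different cells in the Tbx18VP16 group. Its cells also carried 1 altered Tbx18 allele. Each sample pooled about 100000 cells of both sexes from successive sorts, and the p-values measure the spread between such pools. All control and Tbx18_null arrays were of 1 array design, and both Tbx18VP16 arrays were of another design on a slide and scan of their own. For that reason the Tbx18VP16 genotype cannot be told apart from the array design, the slide or the scan.

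FGF ligands are secreted proteins that, held by heparan sulphate, pair up receptor tyrosine kinases and switch on the ERK pathway. Their targets include Etv transcription factors and the feedback genes Spry, Spred and Dusp6, which damp the same signal. In the developing kidney, Fgf9 and Fgf20 maintain nephron progenitors, Fgf8 is needed for nephron formation, and Fgf7 and Fgf10 act on the epithelium of the ureteric bud through Fgfr2. Tbx18, a T-box protein made by the mesenchyme that wraps the ureter, works mainly as a repressor of transcription, and VP16 is a viral activation domain.

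The probes on which the results below turn are shown first, because the letters of a probe bear on what its signal can mean. Both Fgf20 probes lie on chromosome 8, and their coordinates in the files (build mm9) share 28 bases. The stretch below is the end of the upstream probe A_55_P2169499 and the start of the downstream probe A_55_P2180059, with the shared positions in capitals. Their letters differ at 1 of those 28 positions, so they are not independent measures of Fgf20. The Fgf9 probe A_55_P2015994 (chr14:58728897-58728956) is the only probe for Fgf9 on both designs. The Fgf23 probe A_55_P2169514 opens with a run of 20 alternating C and A bases, shown in capitals. The Fgf6 probe A_55_P2073617 (chr6:126978138-126978197) has no such run in its first 30 bases. The Fgfr3 probe A_55_P1996578 carries the only receptor difference that passed the test. Each line gives 30 of a probe's 60 bases.
Fgf20 upstream: taCAAAGACCTACTGATGTACACTGGATGA
Fgf20 downstream: CAAAGACCTACTGATGTACACTTGATGAat
Fgf9: atcagttcattcacactggtatcatagccc
Fgf23: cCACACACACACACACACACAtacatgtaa
Fgf6: ttaaaggtctttttatacgtttctctaaac
Fgfr3: ggcagatgtggttttgttaacacaaccaac

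Levels are given as log2 of the signal relative to the 75th percentile of the same array, so 0 is the level of that percentile. They compare arrays for 1 probe, not one gene with another. A change is a difference of such levels between groups, with the standard error (SE) of the limma fit, and a gene was called where its adjusted p, by the Benjamini-Hochberg method over all genes tested, was under 0.05. Tbx18 itself served as the check of the labels. Its probe read 0.74 ± 0.66 in control (SD, n = 3), -2.03 ± 0.60 in Tbx18_null (SD, n = 3) and 1.20 ± 0.20 in Tbx18VP16 (SD, n = 2). In Tbx18_null it was lower than control in 3 of 3 pairs of pools, by -2.77 ± 0.44 (SE, limma adjusted p = 0.118, and 0.0323 with the block described below, which pairs pools of the same replicate number).

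Across the 8 arrays, the share of probes well above background ranged from 60.1% to 66.0%, and 0 spots were saturated. The number of arrays limits the precision. All 12 ureteric mesenchyme markers were above background on at least 1 array of each group. Their summed level (log2) was 7.63, 7.40 and 7.25 in control replicates 1 to 3. It was lower in each paired Tbx18_null pool, at 7.53, 7.17 and 6.95. Both Tbx18VP16 arrays, at 7.01 and 7.13, lay below all control arrays. Of the 12 markers, 7 had a lower mean in Tbx18_null than in control, 2 of them called with the block. In Tbx18VP16, 7 had a higher mean than in control and 5 a lower one. Markers of other cells were also present. The summed nephron progenitor level lay between 5.10 and 5.57 in control and between 5.95 and 6.08 in Tbx18_null, without overlap, and between 6.07 and 6.15 in Tbx18VP16. Summed ureteric epithelium markers lay between 2.22 and 2.39 in control and between 2.64 and 4.07 in Tbx18_null. Erythroid and endothelial sums were highest in Tbx18_null replicate 3, at 8.58 and 4.08.

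**Figure D1:**
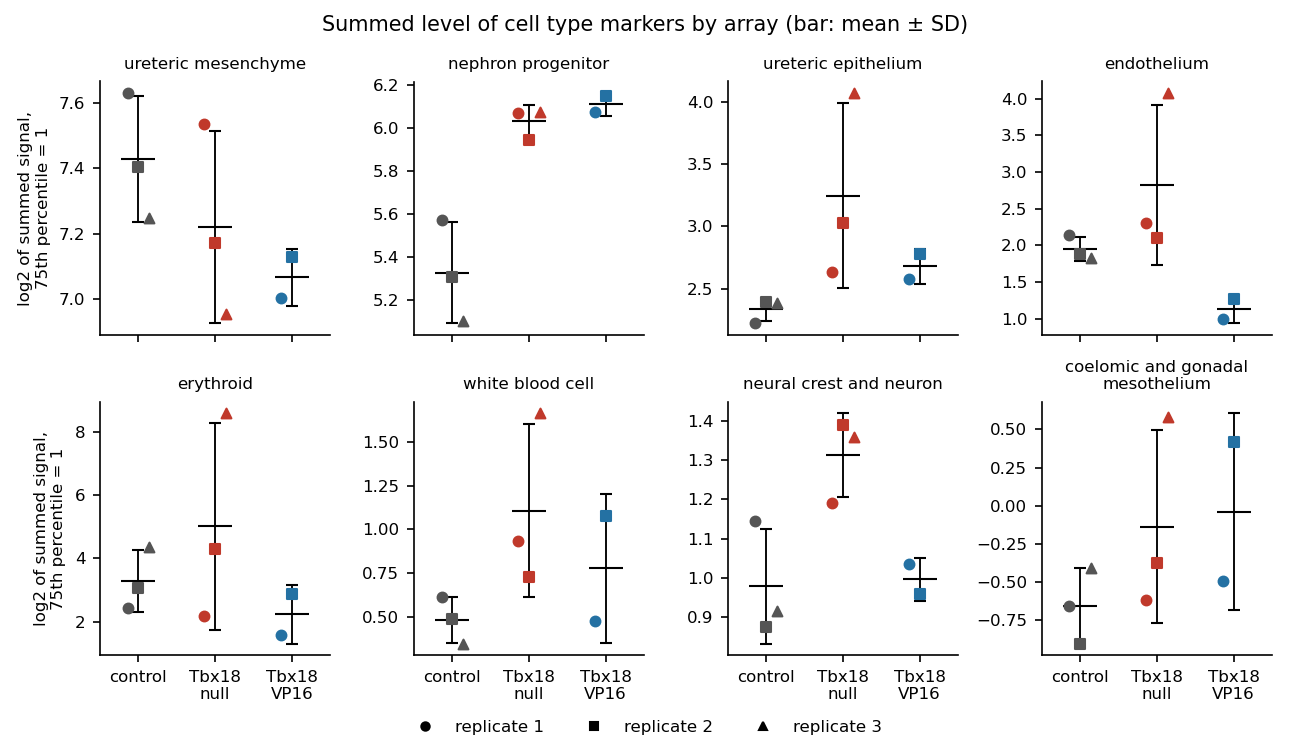
Summed level of each cell type marker list on each array (log2 of the summed signal, with the array's 75th percentile set to 1). Points are arrays, with a shape for each replicate number, and bars give the mean ± SD. Nephron progenitor markers sit between 5.10 and 5.57 in control and above 5.9 in the other 2 groups, and replicate 3 of Tbx18_null stands apart for erythroid markers at 8.58.

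Of the 22 Fgf genes, 4 were not well above background with any probe on any array: Fgf2, Fgf4, Fgf15 and Fgf16. Fgf21 passed on 1 array of Tbx18_null only. Fgf3 passed on 0 control arrays, 1 of 3 Tbx18_null arrays and 1 of 2 Tbx18VP16 arrays, and Fgf5 on 1, 1 and 2 arrays. These levels are bounds set by the background and do not show that the genes were silent. After the filter on dim probes, 25 of the 32 members were tested between Tbx18_null and control and 27 in the Tbx18VP16 comparisons.

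The comparison of Tbx18_null with control asks which FGF genes differ when Tbx18 is lost. Fgf20 and Fgf9 were higher in all 3 pairs of pools, and both were called once the replicate number was taken as a block. Both probes met the filter on dim probes through the Tbx18_null arrays, being above background on 3 of 3 of these and 1 of 3 control arrays. Their control levels are therefore largely bounds, and the sizes and SEs of both changes depend on signal near the background. Fgf10 and Fgf1 were also higher and Fgf7 and Fgfr3 lower in all 3 pairs, but these did not pass the test. No member was called in the fit without the block, where 0 of 19710 genes (0%) passed. With the block, 2 members were called, both higher, against 0.934% of all genes in either direction, 0.482% in the higher and 0.452% in the lower direction. Unadjusted p was under 0.05 for 6 of the 25 tested members, against 4.82% of all genes. Arrays did not overlap between the groups for 5 members, beside 7.75% of all genes. The median change of the tested members was 0.03, beside 0.01 for all genes tested.

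Fgf20 read -6.62, -6.04 and -5.46 in control replicates 1 to 3 and -4.36, -2.07 and -1.56 in Tbx18_null replicates 1 to 3. All 3 Tbx18_null arrays lay above all control arrays, with the smallest step in pair 1. In a common fit the change was 3.37 ± 0.72 (SE, limma adjusted p = 0.273), and it was 3.37 ± 0.38 with the block (limma adjusted p = 0.0455). With normexp background correction the change was 1.86. The probe was well above background on 1 of 3 control arrays and 3 of 3 Tbx18_null arrays. The overlapping probe A_55_P2169499 gave a change of 3.51 ± 0.76. Without pair 1 the blocked adjusted p was 0.0461, without pair 2 it was 0.111, and without pair 3 the probe no longer passed the filter on dim probes.

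Fgf9 followed the same order of groups. It read -7.66, -6.49 and -5.85 in control and -5.41, -3.50 and -2.32 in Tbx18_null, in the order of the replicate numbers. The groups did not overlap, yet the lowest Tbx18_null array was close to the highest control array. The change was 2.92 ± 0.80 (SE, limma adjusted p = 0.464) and 2.92 ± 0.26 with the block (limma adjusted p = 0.0336). Its probe was well above background on 1 of 3 control and 3 of 3 Tbx18_null arrays, and the change was 1.28 with normexp background correction. Within the pairs it was 2.25, 3.0 and 3.52. The blocked call was lost without pair 1 (adjusted p = 0.0620) and without pair 2 (adjusted p = 0.1000), and without pair 3 the probe was not tested.

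Fgf9 and Fgf20 maintain nephron progenitors, and which cells of the pools expressed the 2 genes was not measured. Of 12 nephron progenitor markers, 11 had a higher mean in Tbx18_null, with a median change of 1.23, and 2 were called with the block. Their summed level read 5.57, 5.30 and 5.10 in control replicates 1 to 3 and 6.07, 5.95 and 6.08 in Tbx18_null. Both Fgf genes rose in the order of the replicate numbers in each group. The nephron progenitor sum did not. The erythroid sum did, at 2.45, 3.07 and 4.36 in control and 2.18, 4.29 and 8.58 in Tbx18_null. In Tbx18_null alone, the sums for ureteric epithelium (2.64, 3.03 and 4.07) and mesothelium (-0.61, -0.37 and 0.58) rose in that order too. Of 12 ureteric epithelium markers, 11 had a higher mean, with a median change of 1.51 and 0 called. Tested markers with a higher mean numbered 8 of 8 for endothelium (median change 1.14), 8 of 9 for erythroid cells (2.10), 5 of 6 for white blood cells (0.96), 6 of 8 for neural crest and neurons (0.70) and 4 of 6 for mesothelium (0.18). None of these was called without the block, where 0 genes in all passed. The part of these other cells in the result was not tested. In sorted pools, more cells of a type and more RNA per cell cannot be told apart.

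**Figure D2:**
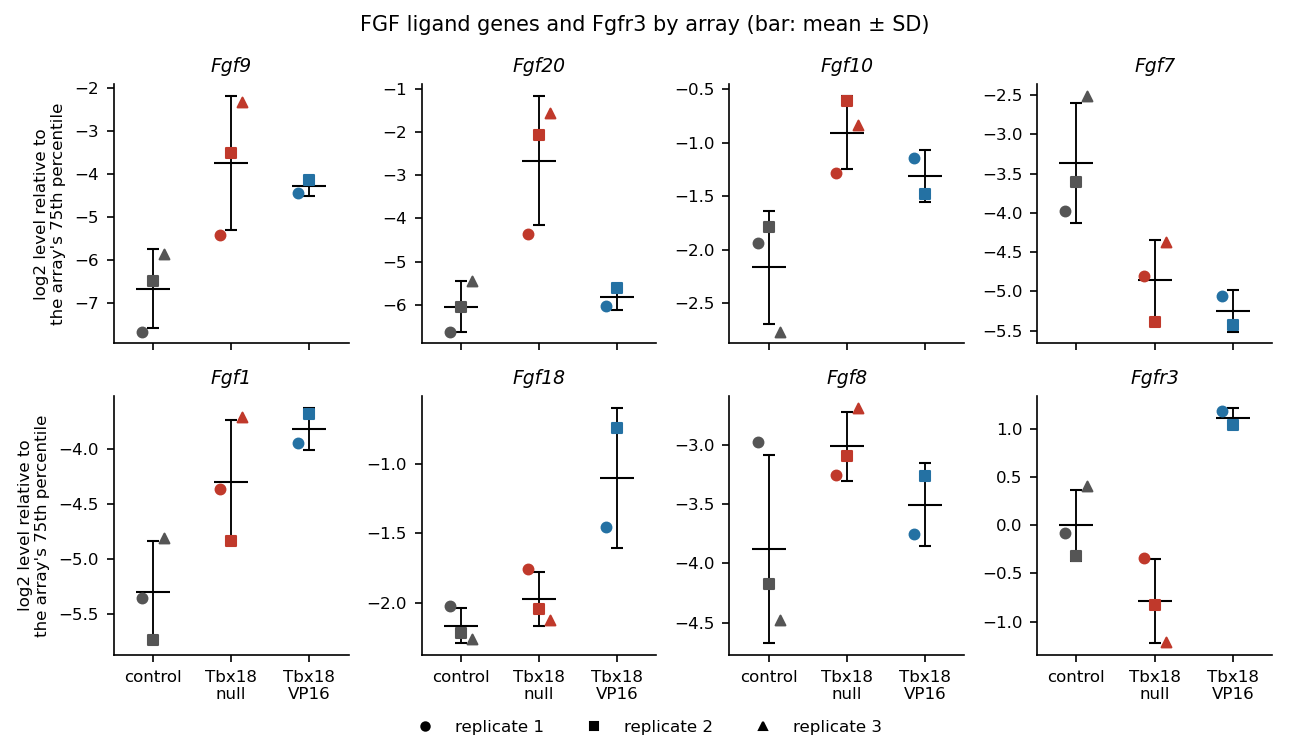
Level of 7 ligand genes and Fgfr3 on each array (log2 relative to the array's 75th percentile, each panel with its own axis). Points are arrays and bars the mean ± SD; Fgf20 lies between -4.36 and -1.56 in Tbx18_null and below -5.4 on the control and Tbx18VP16 arrays, whereas Fgf9 is higher than control in both altered genotypes.

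Fgf10, a mesenchymal ligand for the bud epithelium, read -1.94, -1.79 and -2.77 in control and -1.28, -0.61 and -0.84 in Tbx18_null. The groups did not overlap, and the mean was higher by 1.26 ± 0.34 (SE, limma adjusted p = 0.458, and 0.135 with the block). Fgf7, the ligand known as keratinocyte growth factor, went the other way. It read -3.98, -3.61 and -2.51 in control and -4.81, -5.39 and -4.37 in Tbx18_null, again without overlap. Its mean was lower by -1.49 ± 0.44 (SE, limma adjusted p = 0.576, and 0.0829 with the block), with a change of -0.79 under normexp background correction. Both ligands act on the same form of Fgfr2, and neither difference passed the test.

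Fgf1, a ligand that binds all FGF receptors, differed by nearly the same amount in each pair of pools, namely 1.0, 0.91 and 1.11. It read -5.36, -5.74 and -4.81 in control and -4.36, -4.83 and -3.70 in Tbx18_null. The arrays overlapped between the groups, because control replicate 3 lay above Tbx18_null replicate 2. The change was 1.0 ± 0.38 (SE, limma adjusted p = 0.888, and 0.0511 with the block), and 0.46 with normexp background correction. Fgf8 shows why more than 1 probe matters. Its probe A_55_P2101508 had pair changes of -0.28, 1.08 and 1.79, whereas probe A_55_P2108109 was above background on 0 of 3 control arrays and 2 of 3 Tbx18_null arrays.

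**Figure D3:**
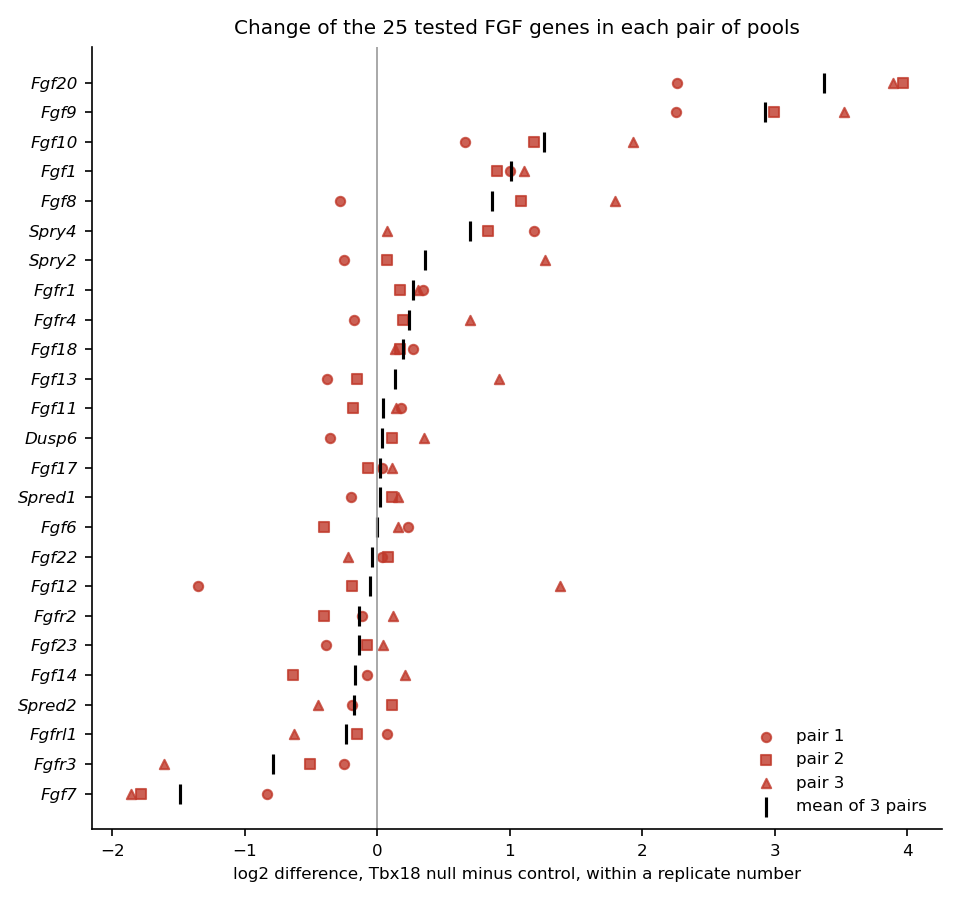
Difference between Tbx18_null and control within each replicate number for the 25 tested members (log2). Symbols are the 3 pairs and the black mark is their mean; Fgf20 and Fgf9 lie above 2 in every pair, and Fgf7 and Fgfr3 lie below 0 in every pair.

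The other Fgf genes tested in this comparison had changes between -0.17 and 0.19 on the log2 scale, and none had an unadjusted p under 0.05. They were Fgf17 and Fgf18, secreted ligands closely related to Fgf8, with Fgf6, Fgf22 and Fgf23, and Fgf11, Fgf12, Fgf13 and Fgf14, which stay inside the cell and bind sodium channels. The Fgf12 pairs ran from -1.35 to 1.38, so its mean near 0 hides a wide spread.

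The comparison of Tbx18VP16 with control asks what a form of Tbx18 turned into an activator does to the same genes. Fgf6 and Fgf23 were the only members called, both lower, and each call rests on 1 of its gene's 2 probes. Among the ligands with a kidney role, Fgf9 was higher and Fgf7 lower than control on both arrays, as in Tbx18_null, and Fgf20 was near the control level. The receptor gene Fgfr3 and the ligand genes Fgf18 and Fgf1 were higher without passing the test. The 2 calls among 27 members stand beside 5.32% of all 20599 genes in either direction, 2.04% in the higher and 3.28% in the lower direction. Arrays did not overlap between the groups for 12 of the 27 members, beside 47.6% of all genes. Unadjusted p was under 0.05 for 9 members, beside 22.8% of all genes.

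The direction of the calls depends on how the arrays were put on a common scale. The Tbx18VP16 design holds 19327 further spots with other names, and with the percentile taken over all non-control spots the median of all genes moved by 0.46 in this comparison. Quantile normalisation and the authors' values moved it by 0.12 each, as did testing all probes without the filter. On the all-spot scale the calls over all genes split into 1132 higher and 251 lower, instead of 420 higher and 675 lower. With quantile normalisation they were 555 and 620, and with the authors' values 565 and 564. Among the members, the all-spot scale gave 3 calls, all higher (Fgf1, Fgf18 and Fgfr3), in place of the 2 lower ones. Against Tbx18_null it gave 2 members, Fgfr3 and Fgf18, both higher, and 748 higher and 171 lower genes, instead of 241 and 512. The authors' values gave 391 and 395 there, and the median moved by 0.46, 0.14 and 0.14 with the all-spot scale, quantile normalisation and the authors' values.

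The median of all genes was -0.14 in this comparison and that of the tested members 0.17. Base composition moved with the difference between designs as well. Probes with at most 20 G or C bases had a median change of 0.39 (586 probes), and those with at least 30 had -0.43 (4966 probes), against -0.04 and 0.08 between Tbx18_null and control. The part of base composition in single results was not tested.

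Fgf6, known from skeletal muscle, read -2.59, -2.59 and -3.32 in control, -2.36, -2.99 and -3.17 in Tbx18_null, and -4.59 and -4.75 in Tbx18VP16. Both Tbx18VP16 arrays lay below all 6 others. It fell by 1.84 on the log2 scale against control (SE 0.34, limma adjusted p = 0.0236) and by 1.83 against Tbx18_null (SE 0.34, limma adjusted p = 0.0319). The other 1567 tested probes with the same 22 G or C bases had a median of 0.09 against control. The second Fgf6 probe, A_55_P2073612, was above background on 0 arrays and gave no second reading. Both calls were lost with the all-spot scale and without either Tbx18VP16 array. Leaving out control replicate 1 (adjusted p = 0.0518) or 2 (adjusted p = 0.0804) also ended the call against control. Leaving out control replicate 2 (adjusted p = 0.0563) or Tbx18_null replicate 2 (adjusted p = 0.0806), or using normexp background correction (adjusted p = 0.0570), ended the call against Tbx18_null.

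Fgf23, a hormone from bone that controls phosphate, read 3.89, 3.41 and 2.93 in control, 3.50, 3.34 and 2.98 in Tbx18_null, and 1.86 and 1.81 in Tbx18VP16 with the probe that opens with the CA run. Both Tbx18VP16 arrays lay below the rest, and the signal fell by 1.57 against control (SE 0.32, limma adjusted p = 0.0323). Against Tbx18_null the difference was -1.43 ± 0.32 (SE, limma adjusted p = 0.0511). Of the arrays' probes, 24 hold a CA run of at least 20 bases, this one included. All 23 others were lower in Tbx18VP16 than in control too, with a median of -1.99 and a range from -2.92 to -1.38. The same 23 probes had a median of only -0.09 between Tbx18_null and control. They share the repeat and are no independent measures. The second Fgf23 probe, A_55_P1976655, was above background on 0 arrays. How much of the signal came from Fgf23 RNA was not tested. The call was lost with the all-spot scale, and without control replicate 1 (adjusted p = 0.0552), control replicate 2 (adjusted p = 0.0929), Tbx18_null replicate 2 (adjusted p = 0.0573) or either Tbx18VP16 array (adjusted p = 0.228 and 0.294).

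**Figure D4:**
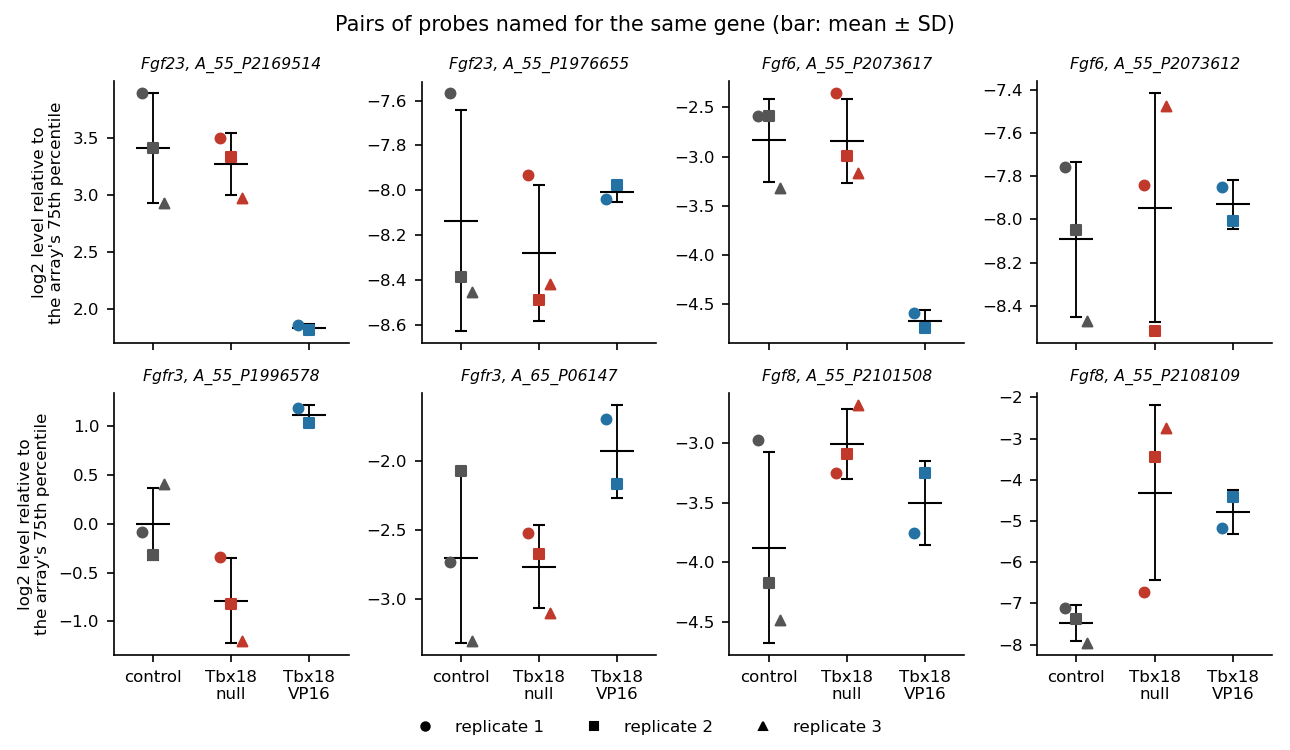
Level of 2 probes each for Fgf23, Fgf6, Fgfr3 and Fgf8 on each array (log2 relative to the array's 75th percentile, each panel with its own axis). Points are arrays and bars the mean ± SD; the second Fgf23 and Fgf6 probes stay near -8 on all arrays, whereas both Fgfr3 probes drawn are highest on average in Tbx18VP16. Fgfr3 and Fgf8 each have another probe, above background on 0 arrays, that is not drawn.

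Fgf9 read -4.44 and -4.13 in Tbx18VP16, above all 3 control arrays and within the range of Tbx18_null. It was higher than control by 2.39 ± 0.85 (SE, limma adjusted p = 0.147), and by 0.56 with normexp background correction. The probe was above background on 1 of 3 control and 2 of 2 Tbx18VP16 arrays. Fgf20 read -6.02 and -5.61, inside the control range and below all 3 Tbx18_null arrays. Its change against control was 0.22 ± 0.76, and the direct difference from Tbx18_null was -3.15 ± 0.76 (SE, limma adjusted p = 0.0623). The Fgf20 probe was above background on 1 of 3 control and 1 of 2 Tbx18VP16 arrays, and the overlapping probe on 0 of 2 Tbx18VP16 arrays. The Fgf20 levels in these 2 groups are therefore near the background. For Fgf9 the direct difference between these groups was -0.54 ± 0.85 (SE, limma adjusted p = 0.744). On this scale Fgf20 lay on the control side in Tbx18VP16 and Fgf9 on the Tbx18_null side. With normexp background correction the Fgf9 change against control was 0.56 in Tbx18VP16 and 1.28 in Tbx18_null. The side on which Fgf9 lay therefore depends on how background is handled. Whether the 2 genes differ in this was not tested. Of the 12 nephron progenitor markers, 10 had a higher mean in Tbx18VP16 than in control, with a median change of 0.72 and 3 called, all higher. White blood cell markers were higher in 7 of 9 (median change 2.10, 1 called), mesothelial in 6 of 7 (0.83, 0 called) and ureteric epithelium in 8 of 12 (0.29, 0 called). Endothelial markers were lower in 8 of 8 (median change -0.53, 1 called), erythroid in 8 of 9 (-0.98, 0 called) and neural crest and neuron in 5 of 9 (-0.37, 1 called higher and 2 lower). Their part in the results was not tested.

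Fgf7 read -5.06 and -5.44 in Tbx18VP16, below all control arrays, with a change of -1.88 ± 0.47 (SE, limma adjusted p = 0.0593). Fgf1 read -3.95 and -3.68, above all control arrays, with a change of 1.49 ± 0.39 (SE, limma adjusted p = 0.0695) that was 0.50 with normexp background correction. Fgf10 read -1.14 and -1.48, also above all control arrays, with a change of 0.85 ± 0.35 (SE, limma adjusted p = 0.203). In each of these 3 genes both altered genotypes had means on the same side of control. The comparisons share their control arrays, so the matching signs are not separate evidence.

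Fgf18 had a higher mean in Tbx18VP16 than in both other groups, without passing the test. It read -2.02, -2.22 and -2.26 in control, -1.76, -2.04 and -2.13 in Tbx18_null, and -1.46 and -0.75 in Tbx18VP16. Both Tbx18VP16 arrays lay above the other 6, and they were further apart than the arrays of either other group. The change was 1.07 ± 0.28 against control (SE, limma adjusted p = 0.0661) and 0.88 ± 0.28 against Tbx18_null (SE, limma adjusted p = 0.120). Its 2 probes share 26 bases, and the other gave 1.08 ± 0.29 against control.

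Fgf3 was well above background on 0 control arrays and 1 of 2 Tbx18VP16 arrays, with mean levels of -7.74 and -5.60 in these groups (limma adjusted p = 0.126). Fgf5 read -7.05, -7.38 and -4.51 in control and -4.97 and -4.22 in Tbx18VP16, where the groups overlap, with a change of 1.72 ± 0.92 (SE, limma adjusted p = 0.308). Fgf12 was higher by 1.25 ± 0.96 (SE, limma adjusted p = 0.476). Against Tbx18_null these 3 genes had changes of 1.74 ± 0.71, 1.11 ± 0.92 and 1.31 ± 0.96 (SE, limma adjusted p = 0.202, 0.504 and 0.452). With normexp background correction the changes of Fgf3, Fgf5 and Fgf12 against control were 0.09, 0.15 and 0.22, and those of Fgf5 and Fgf12 against Tbx18_null were 0.01 and 0.04. None of the 3 genes passed the test, and the sign of the Fgf3 difference from Tbx18_null turned with normexp background correction (-0.024).

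The intracellular members were mixed. Fgf11 was lower by -0.74 ± 0.32 against control (SE, limma adjusted p = 0.226) and by -0.78 ± 0.32 against Tbx18_null (SE, limma adjusted p = 0.212). The 2 Fgf13 probes disagreed against control. A_55_P2139809, which stands for the gene, gave 0.66 ± 0.48. A_55_P2139814 gave -1.45 ± 0.28 (SE, limma adjusted p over probes = 0.0332), and -1.51 ± 0.28 against Tbx18_null (SE, limma adjusted p over probes = 0.0388). A_55_P2139814 was above background on 3 of 3 control and 0 of 2 Tbx18VP16 arrays, so its level in Tbx18VP16 is a bound. The 2 probes lie far apart on the X chromosome, and what sets them apart was not tested. Of 9 members with several tested probes, 7 had the same direction against control in all of them, and the exceptions were Spred1 and Fgf13. Fgf14 was above background on 0 Tbx18VP16 arrays, so its level there is a bound. Fgf8, Fgf17 and Fgf22 had changes between 0.08 and 0.49 on the log2 scale, with an unadjusted p above 0.05. The second tested Fgf8 probe, A_55_P2108109, gave 2.70 ± 1.02 against control (SE, limma adjusted p over probes = 0.186). It was above background on 0 of 3 control and 2 of 2 Tbx18VP16 arrays, so its control level is a bound.

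**Figure D5:**
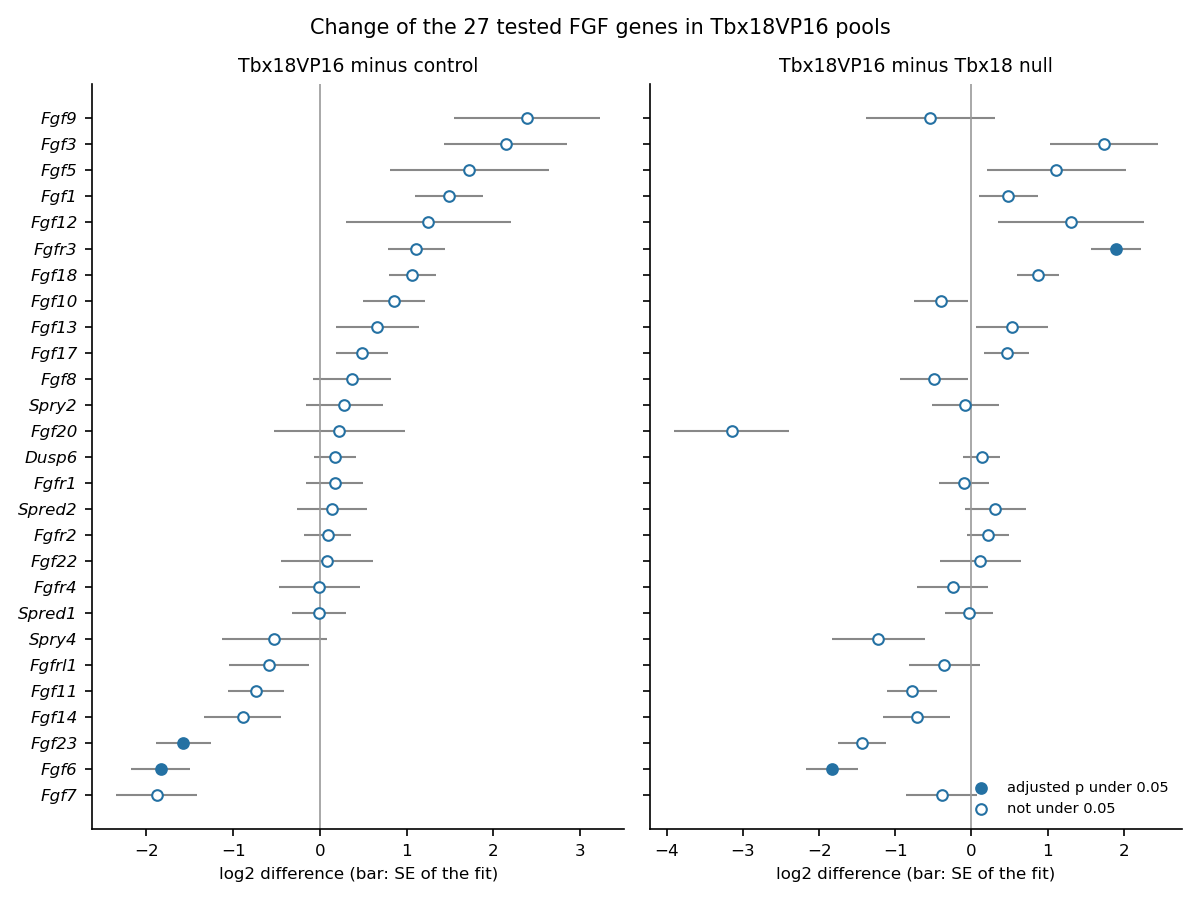
Change of the 27 tested members between Tbx18VP16 and control and between Tbx18VP16 and Tbx18_null (log2, bars give the SE of the fit, both panels in the order of the first). Filled points mark adjusted p under 0.05: Fgf6 and Fgf23 against control, Fgf6 and Fgfr3 against Tbx18_null.

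Of the 5 receptor genes, Fgfr3 was the only one called in any comparison in the fit without a block. Its probe A_55_P1996578 read -0.08, -0.32 and 0.40 in control, -0.34, -0.82 and -1.21 in Tbx18_null, and 1.19 and 1.04 in Tbx18VP16. Both Tbx18VP16 arrays lay above the other 6, and every Tbx18_null array lay below every control array by a small margin. Against Tbx18_null it rose by 1.90 ± 0.33 (SE, limma adjusted p = 0.0255), and against control the change was 1.11 ± 0.33 (SE, limma adjusted p = 0.0946). Between Tbx18_null and control it was -0.79 ± 0.32 (SE, limma adjusted p = 0.993, and 0.348 with the block), and pair 3 held most of it with -1.61, next to -0.25 and -0.51. The probe is AT-rich, with 21 G or C bases, and the other 5993 tested probes of that composition had a median of 0.23 between Tbx18VP16 and Tbx18_null.

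The other Fgfr3 probe above background, A_65_P06147, gave 0.83 ± 0.39 between Tbx18VP16 and Tbx18_null and -0.06 ± 0.36 between Tbx18_null and control. It did not pass the test in either. The third probe, A_55_P2150422, was above background on 0 arrays. With the median over the probes that passed, Fgfr3 was still called between Tbx18VP16 and Tbx18_null, with a change of 1.37 (adjusted p = 0.0392). The call was lost without Tbx18_null replicate 2 (adjusted p = 0.0795), replicate 3 (adjusted p = 0.0530) or either Tbx18VP16 array (adjusted p = 0.258 and 0.304). The 2 members called between Tbx18VP16 and Tbx18_null, Fgfr3 and Fgf6, stand beside 3.66% of all genes in that comparison, 1.17% in the higher and 2.49% in the lower direction. Arrays did not overlap for 11 of 27 members, beside 48.1% of all genes, and unadjusted p was under 0.05 for 7 members, beside 22% of all genes.

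The T-box core AGGTGT was searched on both strands of the 250 bases before the start of each gene, in the RefSeq promoters of build GRCm38.p6. Read on the other strand, the core is ACACCT. The 24 member genes that were matched had 31 promoters, and 3 of these 31 held the core: those of Fgfr3, Fgf5 and Fgf12. Of all 32851 promoters, 11.8% held it. The longer form AGGTGTGA, which contains the core, was in 0 member promoters and in 1.12% of all. The ETS site CCGGAAGT, the kind bound by Etv proteins, was in 1 member promoter, Fgfrl1, and in 2.88% of all. The Fgfr3 sequence is shown because the Fgfr3 probe above had opposite signs against control in the 2 altered genotypes, neither of them called. It is chr5:33721474-33721723 on the plus strand, with the core in capitals at -239 to -234 from the start. A match of this kind is a description of the letters and not a binding site.
Fgfr3 promoter: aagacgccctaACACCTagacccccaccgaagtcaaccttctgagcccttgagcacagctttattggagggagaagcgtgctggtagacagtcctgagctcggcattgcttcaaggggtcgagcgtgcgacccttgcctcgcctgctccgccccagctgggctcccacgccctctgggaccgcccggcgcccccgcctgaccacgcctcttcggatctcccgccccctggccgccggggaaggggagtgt

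The other receptors showed no called difference. Fgfr1 read 2.94 ± 0.41 in control (SD, n = 3), 3.21 ± 0.39 in Tbx18_null (SD, n = 3) and 3.11 ± 0.14 in Tbx18VP16 (SD, n = 2). A different Fgfr1 probe, A_55_P1967022, read 1.39 and 1.66 in replicate 2 of control and Tbx18_null and between -1.14 and 0.16 on the other arrays. That probe was high in both pools numbered 2. Another probe, A_55_P1967015, had a change of -0.04 between Tbx18_null and control, where the other 2 were above 0. Fgfr2, the receptor for Fgf7 and Fgf10, read 0.17 ± 0.33, 0.04 ± 0.15 and 0.26 ± 0.31 in the same order of groups. Fgfr4 had changes of 0.24 and -0.01 against control in Tbx18_null and Tbx18VP16, although its second probe gave -0.95 ± 0.36 in Tbx18VP16 (limma adjusted p over probes = 0.182). Fgfrl1, a receptor without a kinase domain that is needed for kidney formation, had changes of -0.24 and -0.59.

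The feedback genes, which follow ERK signalling in many tissues, were not called in any of the 3 comparisons, with or without the block. Dusp6, an ERK phosphatase, read 3.50 ± 0.28 in control (SD, n = 3), 3.53 ± 0.11 in Tbx18_null (SD, n = 3) and 3.67 ± 0.08 in Tbx18VP16 (SD, n = 2). Its change was 0.03 ± 0.24 and 0.17 ± 0.24 (SE) against control. The Dusp6 estimates thus lay within 1 SE of 0, which does not show that the levels were equal.

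Spry2 and Spry4 encode Sprouty inhibitors of receptor signalling. Spry2 was at -2.61 ± 0.78, -2.25 ± 0.29 and -2.33 ± 0.41 in control, Tbx18_null and Tbx18VP16. Spry4 was dimmer, above background on 2 of 3 control, 2 of 3 Tbx18_null and 0 of 2 Tbx18VP16 arrays, and it was lower in Tbx18VP16 than in Tbx18_null without passing the test (limma adjusted p = 0.277). Spred1 and Spred2, relatives that hold Raf in check, had changes between -0.18 and 0.14 against control. Of the 3 Spred1 probes, A_55_P2090045 was at -0.09 between Tbx18_null and control, and A_55_P2079425 at 0.51 ± 0.30 between Tbx18VP16 and control, both unlike the sign of the main probe.

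Other genes of the pathway were taken from 4 lists. Among the 3 Etv genes, transcription factors at the end of the FGF and Ret pathways, Etv4 was higher than control in both altered genotypes. It was higher in Tbx18_null by 2.48 ± 0.33 (SE, limma adjusted p = 0.0901, and 0.0323 with the block) and rose in Tbx18VP16 by 1.89 ± 0.34 (SE, limma adjusted p = 0.0213). Etv1 was lower in Tbx18_null by -1.61 ± 0.55 (SE, limma adjusted p = 0.742, and 0.0336 with the block). In Tbx18VP16 it was lower than control by -1.97 ± 0.59 (SE, limma adjusted p = 0.0975), without passing the test. Etv5 was not called, with changes of 0.91 and -0.10 against control. The 3 genes therefore had unlike directions.

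Of 14 tested genes for co-receptors and ligand binding, Sulf1 was the only one called without the block. Sulf1 trims sulphate groups from heparan sulphate and so alters the binding of FGF to its receptors. It read 1.24 ± 0.26 in control (SD, n = 3), 0.13 ± 0.39 in Tbx18_null (SD, n = 3) and 2.72 ± 0.13 in Tbx18VP16 (SD, n = 2). It rose in Tbx18VP16 by 1.48 ± 0.29 against control (SE, limma adjusted p = 0.0301) and by 2.59 ± 0.29 against Tbx18_null (SE, limma adjusted p = 0.00756). Between Tbx18_null and control its change was -1.11 ± 0.29 (SE, limma adjusted p = 0.419), and it was called lower with the block only (SE 0.13, limma adjusted p = 0.0490). Sulf1 and Fgfr3 thus had the same order of group means, Tbx18_null, control and Tbx18VP16. Both were called higher in Tbx18VP16 than in Tbx18_null, which already sets part of that order. The share of all genes with this order was not computed. The Fgfr3 difference between Tbx18_null and control was not called, and it was -0.06 with probe A_65_P06147.

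Of 17 tested adaptors and kinases, such as Frs2, Grb2 and the Mapk genes, 0 were called in any comparison, and the smallest p values belonged to Mapk3 and Hras between Tbx18_null and control (changes 0.41 and 0.39) and to Map2k2 and Gab1 between Tbx18VP16 and control (changes -0.62 and -0.42). Of 11 further feedback genes, 0 were called without the block. Dusp4 and Dusp9 had the smallest p between Tbx18_null and control, with changes of 0.89 and 0.56, and Nf1 and Il17rd between Tbx18VP16 and control, with -1.30 and 0.93. Median changes of these 2 lists lay between -0.08 and 0.32 over the 3 comparisons.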

How the data were processed

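Agilent scanner files were read per array. Signals are intensity values that the authors deposited as processed by Agilent Feature Extraction 10.7.3.1, per the submitters' processing notes. Outlier and control spots were left out, the 4 spots of each probe were averaged, and log2 intensity minus the array's 75th percentile over the 39429 probes on both designs was used. A probe counted as above background when at least 50% of its spots were. It was tested when this held on 3 of 6 arrays (Tbx18_null against control) or 2 of 8 arrays (Tbx18VP16). Each gene was represented by its tested probe of highest mean level. limma 3.58.1 in R 4.3.3 fitted group means, on the 6 arrays of 1 design or on all 8; the adjusted p is from these fits. The authors' deposited value table, a normalized intensity with the same distribution in every column (median 93.8, floor 10) and an unstated method, was an alternative on the log2 scale. Scripts were tested on simulated data.

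The labels give control and Tbx18_null the same replicate numbers. Deviations from the group means correlated at 0.827, 0.708 and 0.429 between pools of the same number. Between pools of unlike numbers the correlations ran from -0.753 to 0.321, the highest between control 3 and Tbx18_null 2. The deviations cancel out within each group, so higher correlations in some pairs force lower ones in others. This contrast is therefore partly built in. For replicate 3, pairing cannot be told apart from the shared slide and RNA input. The numbers were taken to pair pools of the same number, and blocked values stand beside the results they change. Replicates 1 and 2 of both groups shared a slide (20 ng RNA each), and replicate 3 of both was on another slide (10 ng). A change is named where unadjusted p was under 0.05 or the change was at least 1 on the log2 scale; genes of the pathway lists are named where called, or else the 2 of smallest p. Probes of a member with another direction are named too; the second Fgf8 probe, the CA-run probes and the base-composition values were chosen after their values were seen. The members, gene lists and tests were chosen with earlier results of these data known. Gene names came from the array files, updated through RefSeq accessions. Also, 2 probes named for Fgf11 and Fgf12 on 1 design only were left out.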

Additional observations from a re-analysis of the deposited data

How the results depend on the processing

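Over 27 changes of named members and their alternatives, 457 of 513 values kept their direction and side of the threshold, 34 passed it where the reported fit did not, 21 no longer passed and 1 reversed. The reversed value was Fgf3 between Tbx18VP16 and Tbx18_null, -0.024 with normexp background correction; the cause was not tested. Between Tbx18_null and control, 0 members and 0 genes were called by limma (951 genes at unadjusted p under 0.05); without the filter on dim probes 1 gene was called, with the filter on every array of a group 14, with the slide as a block 6, with all 8 arrays in the fit 62, and leaving out 1 array 0 to 3. With the replicate block there were 2 members and 184 genes. As alternatives chosen after seeing the data, the block was fitted without 1 pair in turn (1 residual degree of freedom): 0 to 3 members and 11 to 904 genes were called (1, 0 and 3 members; 15, 11 and 904 genes without pairs 1, 2 and 3).

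Between Tbx18VP16 and control (1095 genes, 2 members), normexp gave 625 genes, only the 2 groups' arrays gave 4 members, and the replicate block gave 3640 genes and 8 members. Leaving out 1 array gave 39 to 1918 genes and 0 to 5 members. Between Tbx18VP16 and Tbx18_null (753 genes, 2 members), normexp gave 404 genes, the block 3285 genes and 6 members, and leaving out 1 array 0 to 816 genes and 0 to 3 members. Tbx18VP16 numbers are not taken to pair these pools, since same-numbered pools did not deviate together in every pair. Where 1 Tbx18VP16 array remained, it was assumed to vary like the other groups. With 2 Tbx18VP16 arrays and dim ligand probes, small differences could not be resolved.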
